A study of Sus scrofa with 8 samples.

Results

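The 38 genes described here are the keratins of the pig gene annotation that served the single-cell libraries of this study. They were chosen by name, as the protein-coding genes of the deposited annotation called KRT followed by a number and at most 1 letter, and were split by chromosome into those on the sequence that holds KRT5 and those on the sequence that holds KRT14. These are 15 genes on chromosome 5 and 23 genes on chromosome 12, out of 20679 protein-coding genes and 30390 genes in all. The study dissected tracheal submucosal glands (SMGs) from 4 wild-type and 4 CFTR-/- newborn pigs and sequenced the 3′ ends of transcripts in single cells, with 1 library per animal. CFTR encodes an epithelial anion channel whose loss causes cystic fibrosis, and all 8 animals shared the same age class and tissue. Most cells of the airway surface were scraped off before dissection, and the paper reports a few residual ones. One annotation served both genotypes. It holds start and end coordinates on Sscrofa11.1, counted from 1, and no value per animal, so the lengths and counts below have no replicate error and no test, and the depth of the libraries is unknown. Count matrices were not analysed here, and the tissue could not be checked against its markers.

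Keratins are the intermediate filament proteins of epithelial cells. A filament is built from pairs of 1 acidic type I chain and 1 basic or neutral type II chain, each with a long coiled-coil rod between a variable head and tail, and epithelia are told apart by the pairs that they make. KRT5 and KRT14 are the classical pair of basal and myoepithelial cells, KRT8 and KRT18 the pair of simple and glandular epithelia, KRT1 and KRT10 that of the cornifying epidermis, and KRT4 and KRT13 that of moist stratified surfaces. In mammals the type II genes and KRT18 lie in one chromosomal cluster and the other type I genes in a second one. Because the assay reads the 3′ end of a transcript, and Cell Ranger counts a read only where it belongs to a single gene on the matching strand, the last exon of each keratin model and its likeness to the other members bear on what could be counted.

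The coding bases of the rod's end are shown for 11 keratins because this stretch holds a residue pattern found in most members. Some members also have the same bases there. Each type is marked against its own reference gene, so the capitals do not show how far the types differ. It was located in each translated coding sequence as threonine, tyrosine, arginine, any residue, leucine, leucine, glutamate and the next pair of residues, which take 27 bases. Within type II, capitals mark bases unlike KRT5.
KRT5 (chr5:17863991-17864017, minus strand): acctacaggaagctgctggagggcgag
KRT6A (chr5:17846822-17846848, minus strand): acctacaggaagctgctggaAggcgag
KRT4 (chr5:18092815-18092841, minus strand): acctacCgCaagctgctggagggcgag
KRT8 (chr5:18173284-18173310, minus strand): acctacCgCaagctgctggagggAgag
KRT1 (chr5:18014380-18014406, minus strand): acctaTaggaCCctCctggaAggAgaA
For the type I proteins and KRT18, capitals mark bases unlike KRT14.
KRT14 (chr12:21078426-21078452, plus strand): acctaccgccgcctgctggagggcgag
KRT17 (chr12:21028388-21028414, plus strand): acctaccgccgcctgctggagggcgag
KRT13 (chr12:21142281-21142307, plus strand): acctaccgcAgcctgctggagggcCag
KRT19 (chr12:21118920-21118946, plus strand): acctaccgcAAcctgctggagggcCag
KRT31 (chr12:21212737-21212763, plus strand): acGtaccgGGgGctgctggagAgcgag
KRT18 (chr5:18220836-18220862, plus strand): acctaccgccgcctCctggaAgATgGC

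A match was found in 31 of the 38 genes, in 22 different sequences. The share of all protein-coding genes with this residue pattern was not measured, so the count describes the members only. KRT14 and KRT17 had the same 27 bases. So did KRT13 and KRT15, the hair keratins KRT31, KRT32, KRT33A, KRT34 and KRT35, and the type II genes KRT2, KRT4, KRT74 and KRT77. KRT6A differed from KRT5 at 1 base and KRT1 at 7 bases. KRT18 differed from KRT14 at 6 bases, most of them toward its 3′ end. The 7 genes without a match were KRT80, KRT12, KRT24 and the inner root sheath keratins KRT25, KRT26, KRT27 and KRT28. The absence of these letters says only that the searched residues do not stand in that form. The distance from the stretch to the end of the protein, which is the tail, was 13 residues in KRT19, 42 in KRT17, 49 in KRT14, 120 in KRT5 and 145 in KRT10. KRT19 is known as the keratin that nearly lacks a tail.

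The type II cluster spanned 738979 bp, chr5:17482454-18221432, from KRT80 to KRT18. In map order its genes were KRT80, KRT84, KRT82, KRT6A, KRT5, KRT74, KRT2, KRT1, KRT77, KRT3, KRT4, KRT79, KRT78, KRT8 and KRT18. The first 14 lay on the minus strand and KRT18, the type I partner of KRT8, alone lay on the plus strand. The type I cluster spanned 754499 bp, chr12:21024395-21778893, from KRT17 to KRT222, and all 23 of its genes lay on the plus strand. Their order was KRT17, KRT14, KRT19, KRT15, KRT13, KRT36, KRT35, KRT32, KRT31, KRT34, KRT33A, KRT40, KRT39, KRT23, KRT20, KRT12, KRT10, KRT28, KRT27, KRT26, KRT25, KRT24 and KRT222. Some genes with related roles were adjacent, such as the hair keratins KRT36 to KRT33A and the inner root sheath keratins KRT28 to KRT25. Others were not. The hair keratins KRT40 and KRT39 lay past the widest interval of their cluster. The simple epithelial keratin KRT19 stood between KRT14 and KRT15, and KRT20 between KRT23 and KRT12. No run of 10 or more undetermined bases lay within either cluster, so none of the members was broken by an assembly gap.

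**Figure D1:**
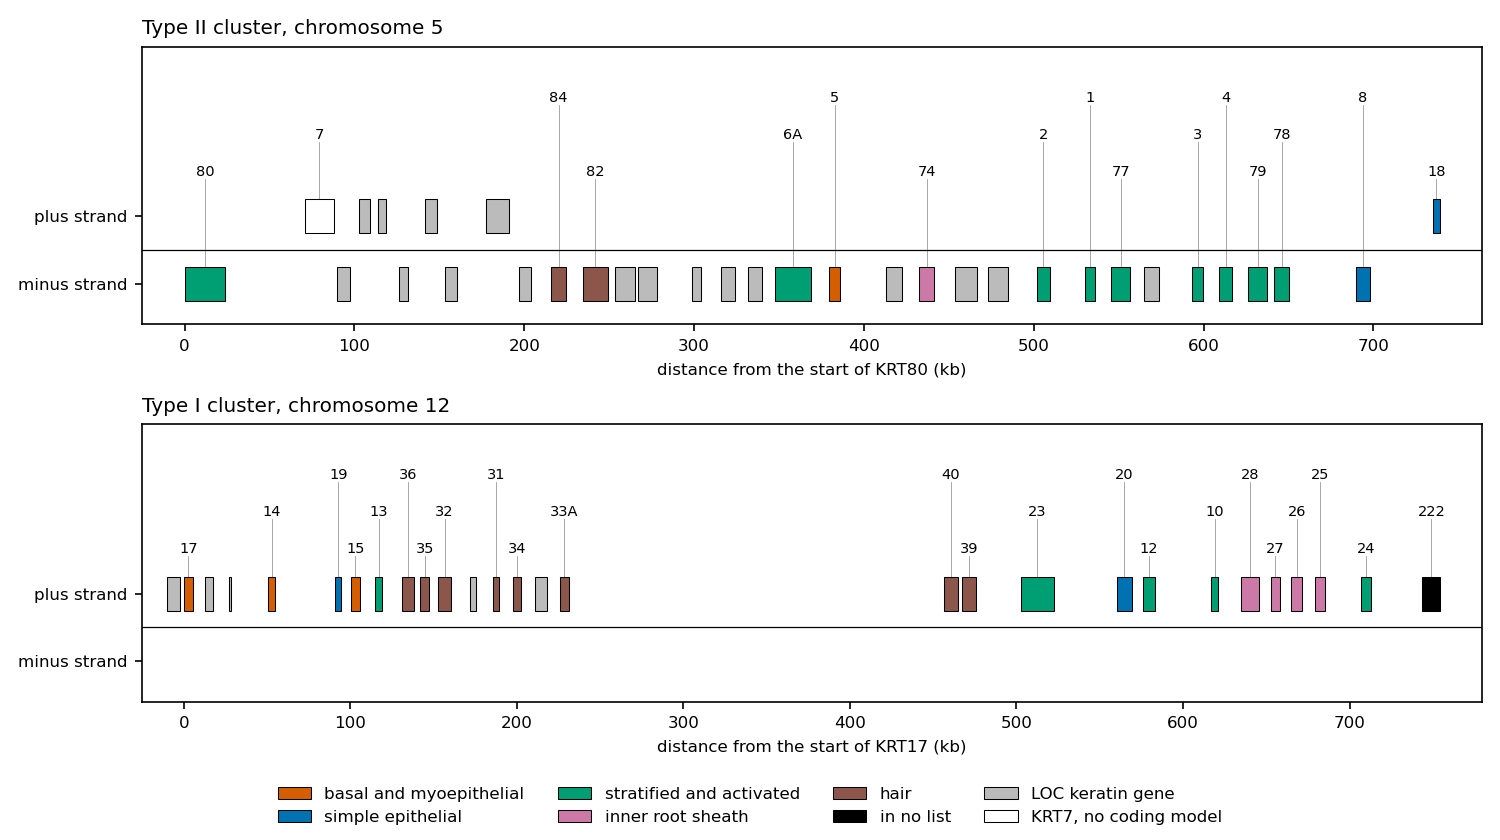
Position of each keratin gene along its cluster, in kb from the start of KRT80 (top) or KRT17 (bottom), with plus-strand genes above the line and minus-strand genes below. Boxes span the gene, numbers give the KRT name, colors give the list of the gene, gray boxes are genes with a keratin product but a LOC name, and the white box is KRT7. All 23 type I genes lie on the plus strand, and KRT18 is the only colored box on the plus strand of the top panel.

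The named genes of the type II cluster were farther apart than those of the type I cluster. The median distance between neighbors was 28796.5 bp on chromosome 5 and 12738 bp on chromosome 12. With the LOC keratins counted, the medians were 9774.5 bp and 9048 bp. The closest pair on chromosome 5 was KRT79 and KRT78, 4433 bp apart, and that on chromosome 12 was KRT40 and KRT39, 2177 bp apart. The widest interval of type II, 191880 bp between KRT80 and KRT84, held 10 genes, 8 of which were protein-coding genes with a keratin product but a LOC name, and KRT7. The widest interval of type I, 225159 bp between KRT33A and KRT40, held 23 genes, 21 of them with a product named as a keratin-associated protein, the cysteine- or glycine-rich proteins that embed hair keratin filaments. On chromosome 5 the nearest gene with a name before the cluster was ATG101, at 56683 bp, and the nearest after it was EIF4B, at 45038 bp. On chromosome 12 these were EIF1, at 47319 bp, and SMARCE1, at 5516 bp. SMARCE1 follows KRT222 on the same strand.

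The members were also read by 5 lists of keratins drawn up from their known sites of expression. All 4 basal and myoepithelial keratins were present, namely KRT5, KRT14, KRT15 and KRT17. Of 5 simple epithelial keratins, 4 were members (KRT8, KRT18, KRT19 and KRT20). Of 20 keratins of stratified and activated epithelia, 14 were members, of 8 inner root sheath keratins 5, and of 17 hair keratins 10. KRT222, a short relative without the usual head, stood in no list. The listed names that were absent included KRT16, KRT6B, KRT6C, KRT75, KRT71, KRT72 and KRT73. A further 21 protein-coding genes carried a keratin product under a LOC name, 16 on chromosome 5 and 5 on chromosome 12, and some of the absent names, such as keratins 71, 72, 73 and 75, stood among their products.

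The only edits to the members were names. The exons of all 38 genes equaled those of RefSeq Annotation Release 106, and 3 type I genes bore another name there. KRT14 (chr12:21074965-21079393) was LOC110255312 in RefSeq, KRT17 (chr12:21024395-21029875) was LOC100737113, and KRT13 (chr12:21139296-21143556) was LOC100515166. KRT14 and KRT17 are markers of basal and myoepithelial cells, and KRT13 of suprabasal cells in stratified epithelia. No member among the type II genes was renamed, and no 3′ UTR of a keratin was lengthened. The share of edited or renamed genes over the whole annotation was not measured here. The paper reports that only a small part of the genes it checked was modified, so unchanged exons are not particular to keratins.

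KRT7, the type II keratin of glandular and ductal epithelia, was not a member because its biotype was lncRNA in the deposited annotation and in RefSeq. Its single model (chr5:17553192-17570582, plus strand) had 10 exons and 2005 bases and no coding segment. The longest open reading frame of that transcript from a methionine codon had 468 residues, began at base 441 and left 158 bases after its stop codon. Its translation was identical to KRT5 at 66.8% of aligned residues, to KRT6A at 66.7% and to the product of LOC100621351 at 66.4%. Exons 4 to 8 of KRT7 had 61, 96, 165, 126 and 221 bases, the same lengths and order as coding exons 3 to 7 of KRT5. The annotation credited the KRT7 model with 68 expressed sequence tags (ESTs) and with 37 RNA-seq samples that supported all of its introns. KRT7 was among the keratins taken from the study as cell type markers or in situ targets, and none of the in situ targets read here was for KRT7. Which biotypes were kept when the reference was built is not stated in the sources used here.

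The inner coding exons of the 2 types had nearly fixed lengths. In type II, coding exons 3 to 7 of KRT5 had 61, 96, 165, 126 and 221 bases. This run stood in 14 of the 15 genes on chromosome 5, with KRT18 the exception, and in none of the 23 on chromosome 12. Of all protein-coding genes 0.135% had it (28 genes), and the 14 that were not members were LOC genes with a type II keratin product. In type I, coding exons 2 to 5 of KRT14 had 83, 157, 162 and 126 bases, and this run stood in 19 of the 23 genes on chromosome 12. Of all protein-coding genes 0.106% had it (22 genes), and the other 3 were LOC100516036, LOC100737030 and LOC110255272, each with a type I keratin product.

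The 5 genes without the run of their chromosome were KRT18, KRT23, KRT28, KRT39 and KRT222. KRT18 read 83, 157, 165, 126 and 224 bases, so its run departed from that of KRT14 by 3 bases in the third of these exons, and it sat on chromosome 5 with a type I layout. KRT28 read 154 in place of 157, and KRT23 read 123 in place of 126. KRT39, a hair keratin, had 2 added boundaries, with coding exons of 83, 137, 17, 52, 107 and 126 bases. KRT222 shared none of the run and had coding exons of 96, 129, 221, 77, 136 and 229 bases. The exon after the run had 221 bases in most type I genes and 218 bases in KRT10, KRT24, KRT25, KRT26, KRT27 and KRT28, which are neighbors in the distal part of the cluster.

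**Figure D2:**
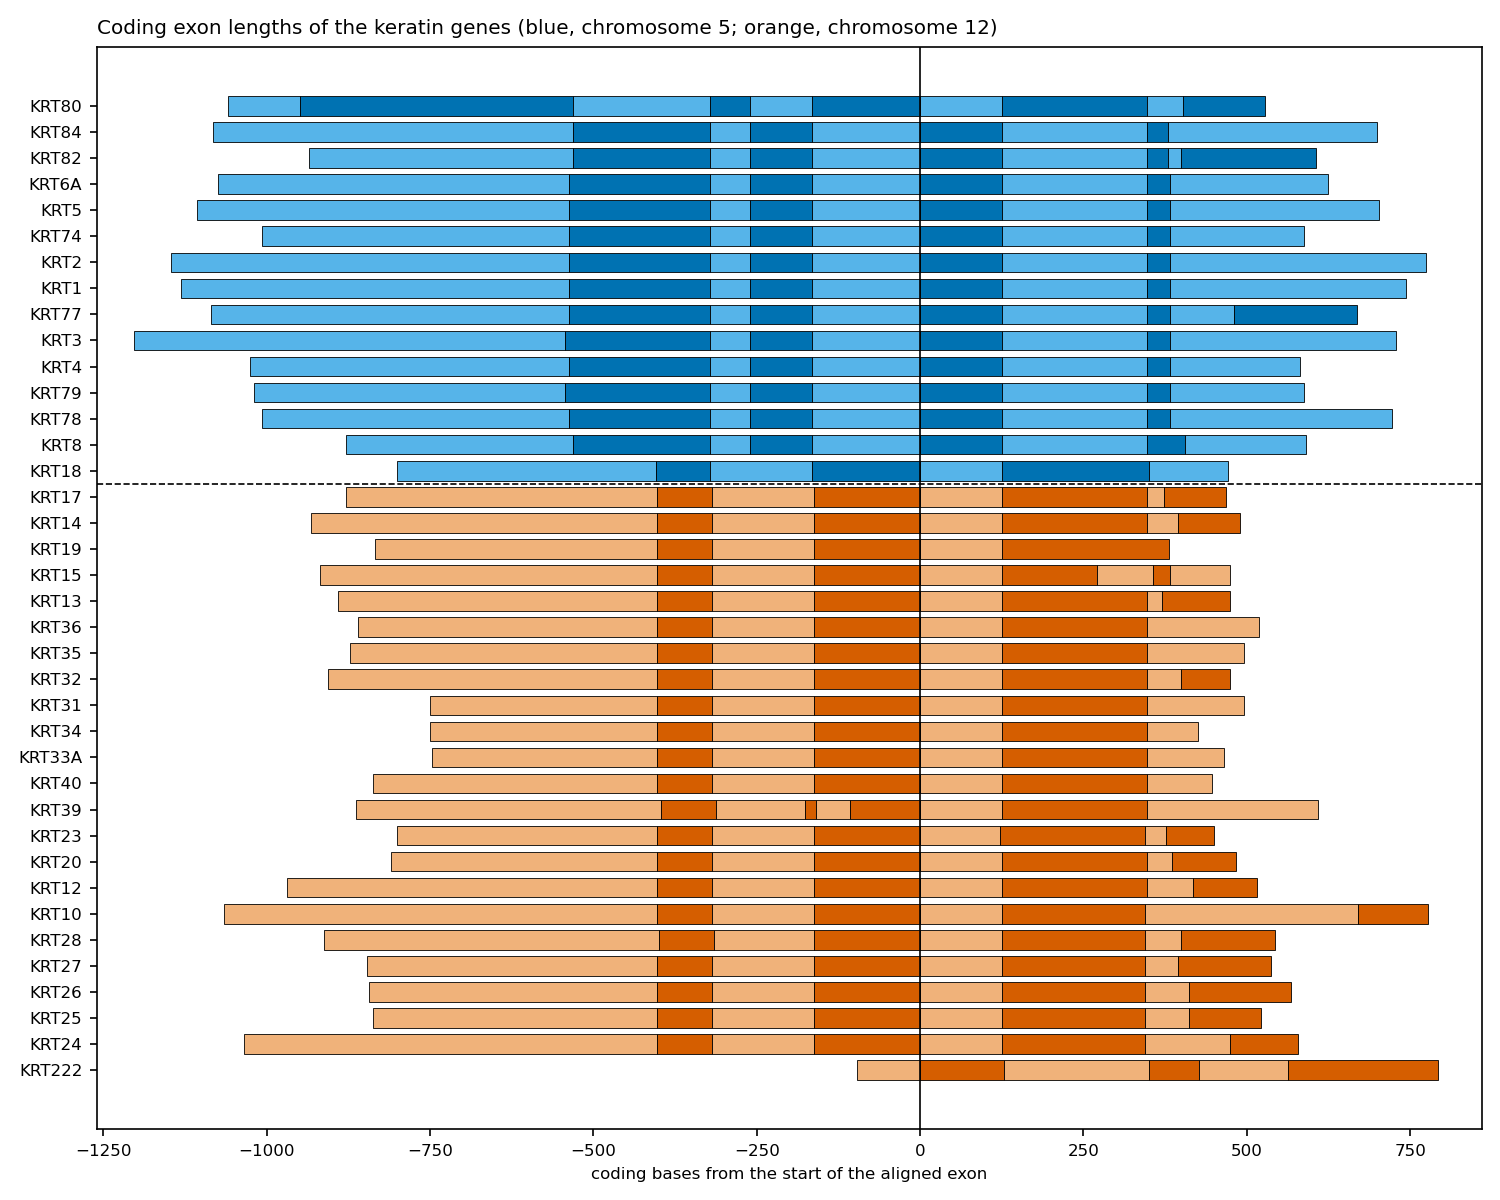
Coding exons of each member drawn to scale in bases, 1 row per gene in map order, with alternating shades for successive exons, blue for chromosome 5 and orange for chromosome 12. Rows are aligned at the start of the exon of 126 bases (123 in KRT23, 129 in KRT222), and the boundaries of the inner exons stand in columns within each type while the first and last exons vary.

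The number of coding exons followed the type. Of the 15 genes on chromosome 5, 11 had 9 coding exons, and KRT80, KRT82 and KRT77 had 10, and KRT18 had 7. Of the 23 genes on chromosome 12, 13 had 8 coding exons. The 6 hair keratins KRT31, KRT33A, KRT34, KRT35, KRT36 and KRT40 had 7. KRT19, which is nearly tailless, and KRT222 had 6, and KRT15 and KRT39 had 9. In KRT15 the exon of 126 bases was followed by exons of 145 and 85 bases, where its neighbor KRT13 had 1 exon of 221 bases. All 38 translations began with methionine and held no inner stop codon, and neither share was measured over all protein-coding genes. Protein length ran from 295 residues in KRT222 to 643 in KRT3, with a median of 565 residues on chromosome 5 and 455 on chromosome 12. The first coding exon, which in type II genes encodes the head and the start of the rod, ran from 348 bases in KRT8 to 660 in KRT3 among the 13 type II genes other than KRT80. In KRT80 a first coding exon of 110 bases was followed by one of 418 bases.

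Protein identity separated the types. Over the 91 pairs of type II proteins the median identity was 58.7% of aligned residues, with a range of 36.5% to 82.3%. Over the 276 pairs of type I proteins, with KRT18 counted among them, it was 49.8%, with a range of 31.5% to 96.5%. Between the types it was 31.4% over 336 pairs, with a range of 25.8% to 43.8%. The upper end of the last range lay above the lower ends of the other ranges, so single pairs overlapped although the medians stood apart. KRT18, placed by its chromosome among type II genes, had a median identity of 45.6% with the 23 genes on chromosome 12 (39.4% to 50.7%) and of 31.5% with the 14 others on its own chromosome (28.7% to 33.8%). These ranges did not overlap. KRT222 had a median of 36.8% with the other type I proteins and 31.8% with the type II proteins.

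The closest named pairs lay within 1 cluster each. KRT31 and KRT33A, both hair keratins, were identical at 96.5% of aligned residues, and KRT31 and KRT34 at 93.1%. KRT27 and KRT25, keratins of the inner root sheath, were identical at 82.6%, KRT6A and KRT5 at 82.3%, KRT17 and KRT14 at 81.9%, and KRT15 and KRT13 at 81.6%. The most remote members were KRT222, whose best match was KRT20 at 42.4%, KRT80 and KRT23, whose best match was KRT24 at 47.6%. KRT80 matched LOC100621024 at 48.7%, but that model has 176 residues and the value rests on 156 aligned pairs. The next match of KRT80 was KRT8, at 44.3% over 461 pairs. For 37 of the 38 genes the best match among all keratins, LOC genes included, lay on the same chromosome. The exception was KRT18, whose best match was KRT13 at 50.7%. The best match was the immediate neighbor among the keratins for 12 genes and stood within 2 places for 19 genes.

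**Figure D3:**
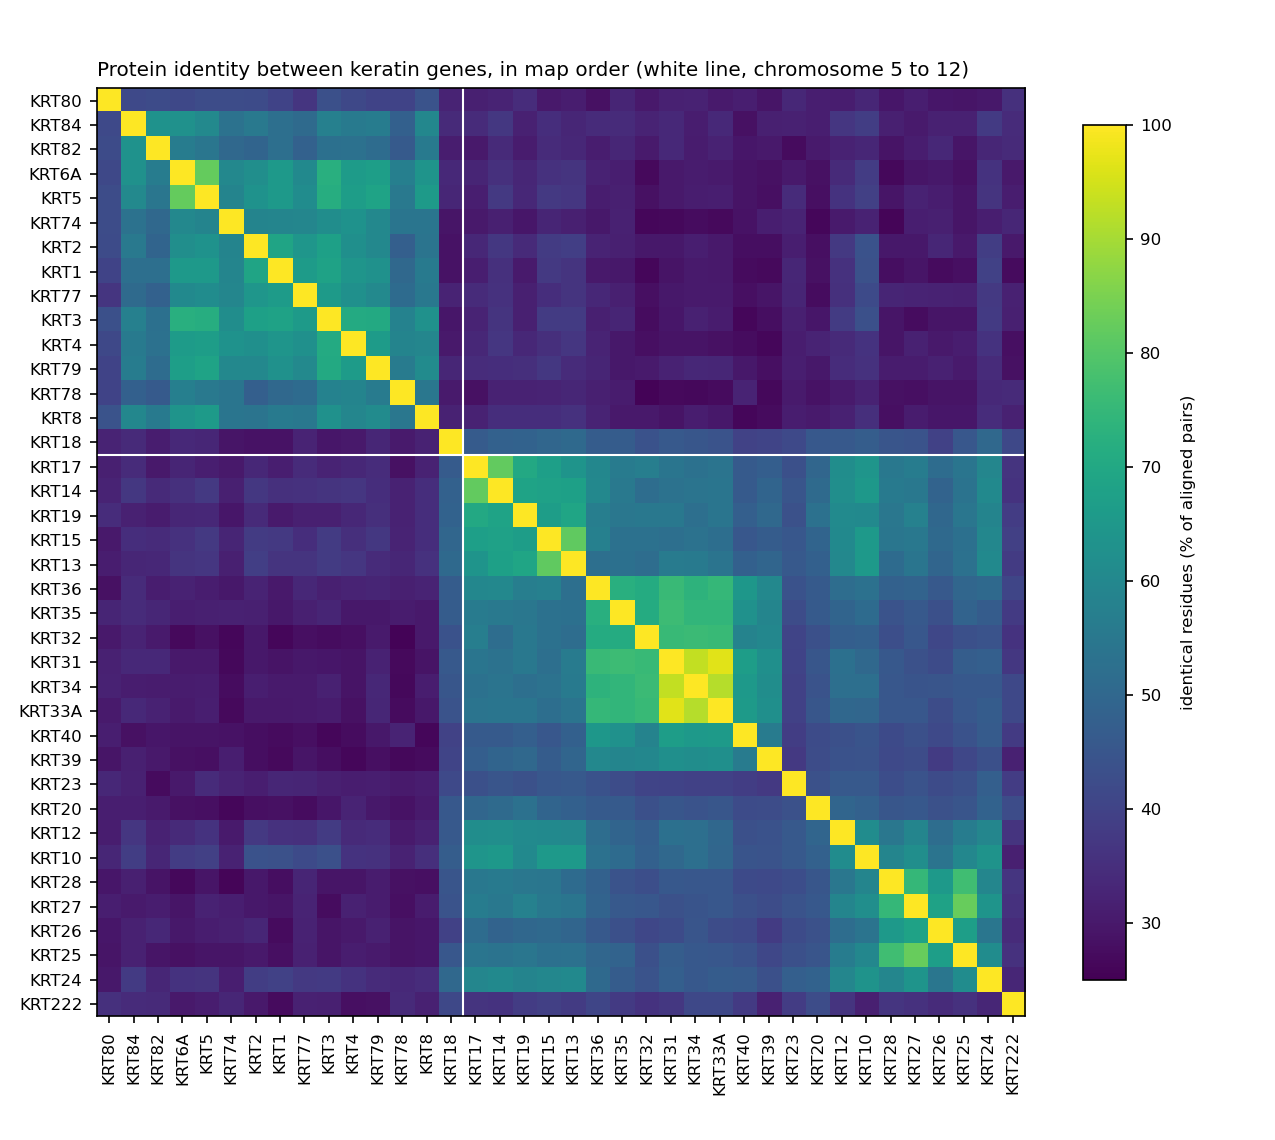
Identity between the translated coding sequences of the 38 members as a percentage of aligned residue pairs, with genes in map order on both axes and a white line between chromosome 5 and chromosome 12. KRT18, just before the line, shows a median of 45.6% with chromosome 12 and of 31.5% with chromosome 5, and the brightest block off the diagonal holds KRT31, KRT34 and KRT33A.

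Most keratin models had a short 3′ UTR. The 3′ UTR was read from the transcript with the most distal 3′ end, as the exon bases past the stop, and its median over the 38 genes was 352 bp, beside 725 bp over 20674 protein-coding genes with a coding model. Of the 38 genes 29 were below that median, where the background is 50%. On chromosome 5 the median was 452 bp and on chromosome 12 283 bp. KRT5 had 348 bp, KRT15 281 bp, KRT14 153 bp and KRT17 139 bp, which gave the basal and myoepithelial list a median of 217 bp. In the simple epithelial list KRT8 had 177 bp, KRT18 61 bp, KRT19 127 bp and KRT20 792 bp, and the median was 152 bp. The medians were 370.5 bp over the 14 keratins of stratified and activated epithelia, 270 bp over the 5 of the inner root sheath, and 361 bp over the 10 hair keratins. All of these list medians lay below that of all coding genes.

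KRT18 and KRT39 had a 3′ UTR under 100 bp, 2 of 38 genes (5.26%), where the background is 15.6%. That of KRT39 had 9 bp. The longest belonged to KRT36 with 2288 bp, KRT80 with 2248 bp and KRT222 with 2088 bp. Among the keratins of stratified epithelia, KRT4 had 480 bp, KRT6A 375 bp, KRT23 301 bp, KRT13 201 bp and KRT2 158 bp. A cleavage and polyadenylation hexamer (AATAAA or ATTAAA, on the strand of the gene) stood in the last 50 bases of 27 of the 38 models (71.1%), where the background is 60.9%. KRT4, KRT5, KRT6A, KRT8, KRT13, KRT14, KRT15, KRT17, KRT18, KRT19 and KRT23 all had it. The 11 genes without it were KRT2, KRT77, KRT3, KRT79, KRT36, KRT32, KRT40, KRT39, KRT20, KRT28 and KRT24.

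**Figure D4:**
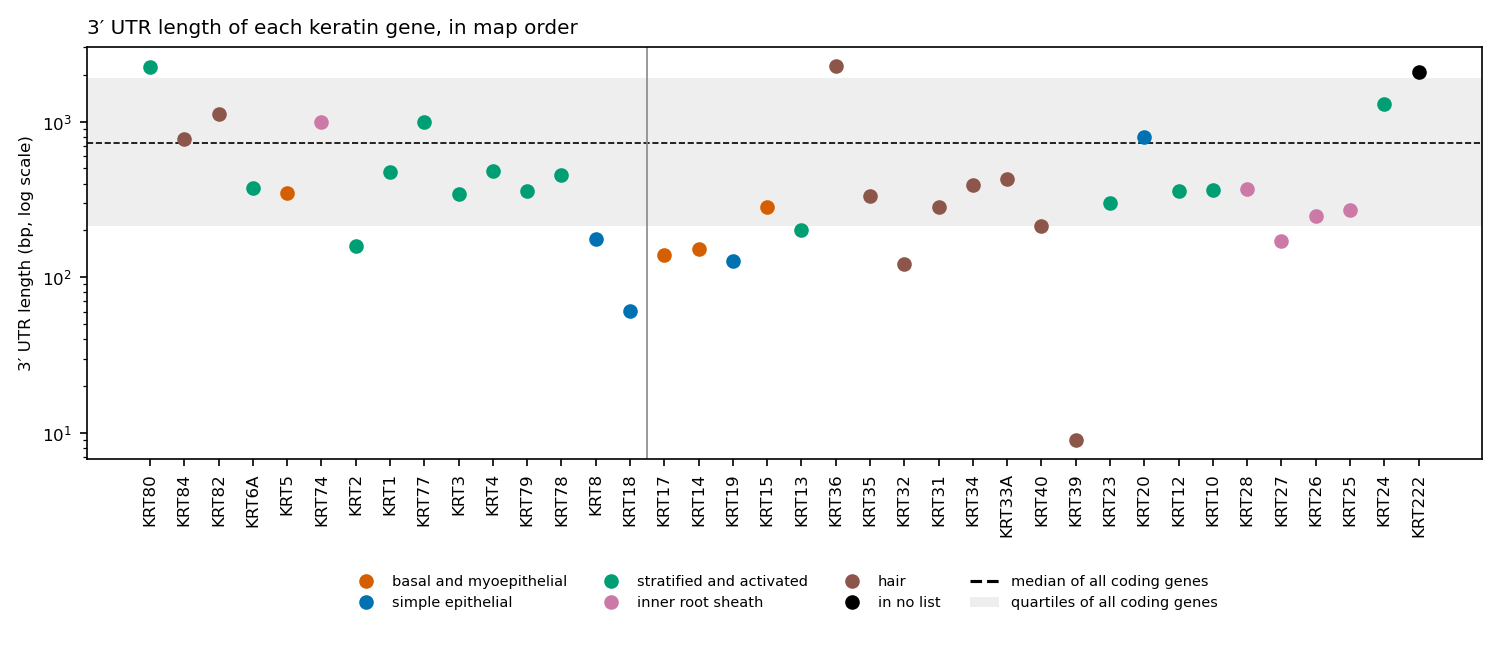
Length of the 3′ UTR in bp, on a log scale, of each member in map order, with chromosome 5 to the left of the vertical line and chromosome 12 to the right. Points are colored by list, the dashed line is the median of all coding genes (725 bp) and the gray band their quartiles, and 29 of the 38 points lie below the line.

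No member shared exon bases with another gene on its strand, 0 of 38 genes, where the background is 3.36%. The next gene on the same strand began within 10 kb of the 3′ end in 21 of the 38 genes (55.3%), where the background is 24.9%. Behind KRT40 came KRT39 at 2177 bp, behind KRT36 came KRT35 at 3907 bp, and behind KRT19 came KRT15 at 5489 bp. Behind KRT5 the next gene was KRT6A at 10933 bp, and behind KRT8 it was KRT78 at 39428 bp. On the opposite strand, 4 genes shared exon bases with another gene (10.5%), where the background is 17.1%. These were KRT28 with 734 bases, KRT26 with 265, KRT24 with 121 and KRT25 with 12, and the partners were the lncRNA genes LOC110256012 for KRT28 and LOC106505430 for the other 3.

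Most keratin 3′ ends shared no long word with another gene, while most words of KRT6A and KRT14 were shared. The last 500 bases of each spliced model were read as words of 50 bases. Each word was sought, in the direction of transcription, in all transcripts of all other genes. In 9 of the 38 genes (23.7%) at least 1 word was found elsewhere, where the background is 13.4%. They were 2 type II genes, KRT6A and KRT8, and 7 type I genes, KRT13, KRT14, KRT15, KRT17, KRT27, KRT31 and KRT32. Their partners were keratin genes in every case. KRT5, KRT4, KRT18, KRT19, KRT20 and KRT23 shared no such word. In other settings KRT19 shared with words of 30 bases, and KRT5 and KRT19 shared in the last 1000 bases.

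In KRT6A, which is induced in activated and regenerating epithelia, 88.9% of the words were found in LOC100737483, whose product is also a keratin 6A and which begins 7496 bp behind it. Sharing reached the last base. The 500 bases of KRT6A fell into a shared stretch of 226 bases and one of 273 bases, separated by 1 base. A share of 11.3% was also found in LOC110260665 and in LOC106507259, a keratin 6A-like gene that is not protein-coding. KRT6A and LOC100737483 both had a 3′ UTR of 375 bp. The proteins of KRT6A and LOC100737483 were identical at 98.0% of aligned residues, and those of KRT6A and LOC110260665 at 98.4%.

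In KRT14, 70.5% of the words were found in another gene and 60.1% in LOC110255272 (chr12:21037349-21041743, plus strand), a keratin 14-like gene that lies between KRT17 and KRT14. The 2 proteins were identical at 97.7% of aligned residues and both genes had a 3′ UTR of 153 bp. Of the words that lay wholly in the 3′ UTR of KRT14, 88.5% were shared, and the last 141 bases were identical. The bases between positions 223 and 141 before the end, which include the stop codon, were covered by no shared word. KRT17 shared 21.5% of its words, mostly with KRT14, and all of these touched the coding part. Its 3′ UTR of 139 bp held no shared word.

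In the other 6 genes the shared words also lay in the coding part, and none was in the 3′ UTR. KRT32 shared 29.3% of its words, with the hair keratins KRT31, KRT33A, KRT34 and KRT35 and with LOC100516036. KRT27 shared 18.0% with KRT28 and KRT25. KRT31 shared 5.99%, KRT13 5.76% with KRT15, and KRT15 4.66% with KRT13. KRT8 shared 1.11% with KRT80, in 1 stretch of 54 bases. Words wholly within the 3′ UTR were thus shared in KRT6A and KRT14 among the 38 genes.

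**Figure D5:**
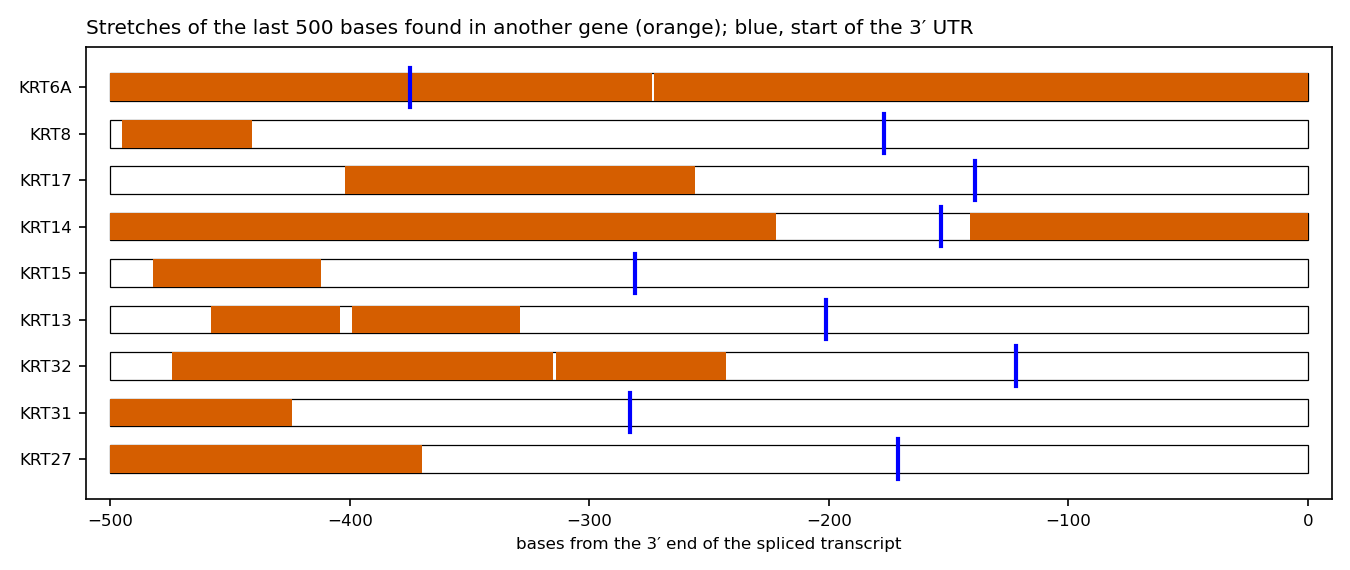
The last 500 bases of the spliced model of the 9 keratins that share a word of 50 bases with another gene, with distance from the 3′ end in bases on the x axis. Orange marks stretches that occur in another gene and the blue tick marks the start of the 3′ UTR. Orange lies to the right of the tick in KRT6A (375 bp) and KRT14 (153 bp) and in no other row.

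The study's in situ targets for keratins show the same closeness at one site. Of the 8 targets of 40 bases for KRT5, KRT4 and KRT14, all were found without a mismatch in their own gene and 1 in a second gene. That was the second target of KRT14, which lies wholly in the 3′ UTR in exon 8 of 8 and ends 45 bases before the transcript end. It occurs at chr12:21079309-21079348 in KRT14 and at chr12:21041659-21041698 in LOC110255272. The first target of KRT14, at chr12:21079219-21079258 in exon 8, has 22 coding bases and 18 bases of 3′ UTR, and the best site for it in LOC110255272 had 15 mismatches when read without gaps. The middle 30 bases of each are shown because only the second is common to both genes.
KRT14 target 1 (chr12:21079224-21079253, plus strand): ttcgcaccaagaactaaggccgctctgcac
KRT14 target 2 (chr12:21079314-21079343, plus strand, and chr12:21041664-21041693 in LOC110255272): cctcgagcacttcatacctgagtccagttt
The first target of KRT5 lies in the 5′ UTR in exon 1, at chr5:17868263-17868302, and its other 2 targets lie in the coding part of exon 1. The targets of KRT4 lie in exons 1, 2 and 9. For the 3 targets of KRT5 the closest other keratin had 13 to 15 mismatches, and for those of KRT4 12 to 15.

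The letters TATAAA, the core of a TATA box, were sought on the strand of the gene in the 50 bases before the first annotated base of each gene. They stood there in 9 of the 38 members (23.7%), where the background is 1.89%. They occurred in 8 of the 23 genes on chromosome 12, namely KRT17, KRT14, KRT31, KRT34, KRT33A, KRT12, KRT10 and KRT26, and on chromosome 5 in KRT8. The first of the 6 letters stood 16 bases before the start in KRT14, 18 in KRT12, 20 in KRT10, 21 in KRT17, 29 in KRT31, 36 in KRT8 and 40 in KRT26. KRT5, KRT6A, KRT4, KRT13, KRT15, KRT18 and KRT19 had no match in this window. A match is a description of the letters, and the window rests on where each model begins.

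The support that NCBI lists for each model gives a readout that the choice of genes did not use, from pig sequence data that need not include SMGs. Counts were given for 33 members, and KRT74, KRT2, KRT8, KRT31 and KRT27 carried no such record. KRT19 had the most, with 523 ESTs and 119 RNA-seq samples that support all introns. KRT18 had 158 ESTs and 90 samples, KRT14 276 and 24, KRT13 227 and 17, KRT5 157 and 31, KRT4 99 and 22, and KRT6A 94 and 21. KRT20, a keratin of intestinal epithelium, had 104 ESTs, 18 samples and 953 long reads. The 9 hair keratins with counts had at most 38 ESTs and 6 samples each, and none had a long read. Some cuticular (hair) or microfibrillar keratin products under LOC names had more ESTs, with 119 for LOC100516036, 95 for LOC100523670, 92 for LOC106507258 and 81 for LOC100523123. Over the 33 members the medians were 16 ESTs and 6 samples, beside 16 ESTs and 80 samples over 18927 protein-coding genes with counts. LOC110255272, the near copy of KRT14, had 10 ESTs and 0 samples, and LOC100737483, the near copy of KRT6A, had 21 ESTs and 10 samples.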

How the data were processed

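The authors made 3′ single-cell libraries from SMGs of 4 wild-type and 4 CFTR-/- newborn pigs and counted reads per gene; the tool named in the submitters' notes is Cell Ranger 3.0.2. The authors deposited the edited NCBI Sus scrofa Annotation Release 106 for Sscrofa11.1 that was used as reference, and its values are start and end coordinates, not counts. It served all 8 libraries, so no comparison of genotypes was made and the depth is unknown.

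The members and lists were chosen with earlier results of these data known. Every member is named, with values for the study's marker keratins, extremes, atypical models and genes with a shared 3′ end; KRT222, KRT1, KRT3, KRT10 and others of the exon, TATAAA and support paragraphs were named after their values were seen. Genes were read by the transcript with the most distal 3′ end for UTRs, and by the longest coding sequence for exons and proteins. Genes counted as LOC keratins have a product that begins with keratin, type I or type II. RefSeq models and bases came from the genome of the same build. Words were matched exactly. Proteins were translated and aligned end to end (BLOSUM62, gap opening -10, extension -0.5, end gaps -0.5), and identity was counted over aligned pairs. In situ targets came from the study's supplementary list. The TATAAA search was added after the data had been seen. All 16 tests of the measures on simulated sequences and models gave the known answer. The tools were Biopython 1.88, numpy 2.4.6 and matplotlib 3.10.9 under Python 3.11.15.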

Additional observations from a re-analysis of the deposited data

How the results depend on the processing

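Of 14 results under 24 alternatives, 11 values stayed equal or, for counts, within 1.5 times, and 13 moved. The median 3′ UTR of the members was 352 bp, 345 bp by the transcript with the longest coding sequence and 356 bp with the LOC keratins. The 2 genes under 100 bp became 1 under 50 bp and 9 under 200 bp. Exon sharing on either strand gave 4 genes in place of 0. The 9 genes with a shared word became 13 with words of 30 bases and 5 with words of 90 bases. They became 3 in the last 300 bases and 16 in the last 1000 bases. KRT6A, KRT14 and KRT32 were among them in every setting. With LOC keratins the median distance between neighbors fell to 9774.5 bp (type II) and 9048 bp (type I), so the gap between the clusters in spacing was much smaller with these genes counted. Local alignment gave median identities of 52.4% within type I, 58.8% within type II and 31.2% between the types. The TATAAA count was 9, and 11 in 100 bases, a window chosen after seeing the data. No paired analysis was possible because there are no per-animal values.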

Other observations

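Several keratins that the lists name but the annotation does not were present under LOC names. The products of LOC106506651, LOC733618 and LOC100511079 were keratins 71, 72 and 73, which with KRT74 are type II keratins of the inner root sheath, and their best protein matches were each other, at 76.1% to 83.2% of aligned residues. LOC100525745 had the product keratin 75 and was identical to KRT5 at 80.5%. LOC110255900, a keratin 16-like gene of 212 residues, began without methionine and held 1 inner stop codon. LOC100525573 and LOC102162785, hair keratin products, held 1 and 2 inner stop codons, whereas no member held any. LOC110260665 shared 100% of its last words with LOC106507259, a 6A-like gene without a coding model. The letters TATAAA stood in the 50 bases before the start of 6 of the LOC keratins, among them LOC110255272 at 49 bases, whereas in KRT14 they stood at 16 bases.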
